A study of Rattus norvegicus with 18 samples.

Results

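The nuclear genes for respiratory complexes II, III, IV and V and for cytochrome c were followed in fast skeletal muscle of female rats. They were taken by gene symbol: Sdha, Sdhb, Sdhc, Sdhd, Cyc1 and Cycs, the symbols starting with Uqcr or Atp5, and those starting with Cox4i, Cox5, Cox6, Cox7 or Cox8 and a letter. This gave 51 genes of the 16856 with a probe set carrying their symbol alone, of which 4 belong to complex II, 9 to complex III, 17 to complex IV and 20 to complex V, with Cycs between complexes III and IV. The symbols take in some relatives of subunits: Cox6c-ps1 is a pseudogene of Cox6c, Atp5if1 encodes the inhibitor of complex V, Cox7a2l encodes a factor that joins complexes III and IV, and Atp5mc1l2, Atp5mgl3 and Atp5mgl4 are named as like known subunits. The brightness of 49 of them was above the level set for testing, and Cox8c and Atp5mgl3 were below it.

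The respiratory chain of the inner mitochondrial membrane passes electrons to oxygen and stores the energy as a proton gradient. Complex II, succinate dehydrogenase, feeds electrons from the citric acid cycle, complex III passes them to cytochrome c, complex IV hands them to oxygen, and complex V, ATP synthase, uses the gradient to make ATP. Every subunit of complex II is nuclear-encoded, whereas the other complexes also hold subunits made from mitochondrial DNA, which are not analysed here. Fast muscle carries less of this machinery than slow muscle, and several complex IV subunits have a form made mainly in muscle.

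The animals were adult F2 Sprague-Dawley females, grandchildren of F0 males that had been given chow or high-fat food. Each female herself ate chow or a high-fat diet, with 42/45% of its energy as fat, for 12 weeks. RNA of the extensor digitorum longus (EDL), a fast muscle of the lower leg, was measured on 1 Affymetrix whole-transcript array per animal, with 200 ng of total RNA. Groups are named by the grandfather's diet and then the female's own diet: 4 animals were high-fat/high-fat, 4 high-fat/chow, 5 chow/high-fat and 5 chow/chow. Each array comes from a separate animal, but the number of founding males is not given in the labels. Where females share a grandfather, the p-values of the grandpaternal comparisons below are too small. Those of the own diet and of the interaction may then be too small or too large.

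Values are log2(intensity + 16) after quantile normalization, and differences are on this log2 scale, which understates changes of dim genes. The tests used limma on 12591 genes, with p-values adjusted by the Benjamini-Hochberg method over all of them and a threshold of 0.05. For arrays there is no read depth, and the number of animals limits the precision. Median deposited intensities of the arrays ran between 55.02 and 73.97. Of 13 fast-fibre marker genes 9 had a probe set carrying their symbol alone and all of these passed the brightness filter, as did 14 of 14 slow-fibre markers. The summed intensity of the fast-fibre markers was 61575 to 68192 in high-fat/high-fat, 59584 to 68691 in high-fat/chow, 63120 to 73556 in chow/high-fat and 66522 to 73793 in chow/chow animals. The sum of the slow-fibre markers varied far more between animals, at 6045 to 20636, 6897 to 16090, 7338 to 22193 and 13155 to 22804 in the same order of groups. In whole muscle, fewer cells of a type and less RNA per cell cannot be told apart.

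Promoters of 4 genes whose values are given animal by animal below are shown because they carry elements that nuclear respiratory genes are known for. NRF-1, NRF-2 (also called GABP), the estrogen-related receptors (ERR), YY1 and Sp1 are transcription factors known to act at such promoters. Sequences are from RefSeq, rat build GRCr8, each written 5′ to 3′ on the strand of its gene; capitals mark matches on either strand to GCGCATGC (short NRF-1) and to the full NRF-1 element, which is the short one with GC added after it, to CCGGAAG (NRF-2), AAGGTCA (ERR), AAGATGGC (YY1) and GGGCGG (Sp1). The Sdhd stretch, chr8:59850642-59850737 on the minus strand, is the whole 96 bases between its start and that of the oppositely transcribed Timm8b, and the others are chr5:158547784-158547933 (plus strand), chr3:183680173-183680322 (minus strand) and chr14:1464710-1464859 (plus strand) in the order printed.
Sdhd: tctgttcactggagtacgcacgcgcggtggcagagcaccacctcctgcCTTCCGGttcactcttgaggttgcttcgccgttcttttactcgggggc
Sdhb: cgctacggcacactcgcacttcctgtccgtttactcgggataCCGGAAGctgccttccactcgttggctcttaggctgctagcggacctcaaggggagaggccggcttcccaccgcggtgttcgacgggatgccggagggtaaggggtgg
Atp5f1e: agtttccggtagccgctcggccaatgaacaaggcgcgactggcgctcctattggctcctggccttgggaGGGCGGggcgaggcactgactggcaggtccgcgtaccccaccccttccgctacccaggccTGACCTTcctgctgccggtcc
Atp5me: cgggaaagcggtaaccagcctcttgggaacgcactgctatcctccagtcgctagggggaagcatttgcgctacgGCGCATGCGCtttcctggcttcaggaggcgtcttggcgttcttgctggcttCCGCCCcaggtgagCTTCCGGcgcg

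In the Sdhd and Sdhb stretches only the NRF-2 letters were matched, Atp5f1e held the ERR and Sp1 letters, and Atp5me held those of NRF-1, NRF-2 and Sp1. A window of 300 bases, 250 before and 50 after the start, was on hand for 42 of the 51 genes. The NRF-2 letters stood in 14 of these 42 windows (33.3%) and in 8.75% of all 33469 promoter windows. The short NRF-1 letters stood in 8 windows (19.0%, against 2.47% of all), and the full ones in 3, those of Atp5mc2, Atp5me and Atp5po (7.1%, against 0.852%). ERR and YY1 letters stood in 7 windows each (16.7%), against 4.61% and 3.17% of all. Sp1 letters were about as common here as elsewhere, in 16 windows (38.1%) against 33.1% of all and 41.8% of protein-coding genes. Median GC content was 55.7% in these windows, against 51.7% in all and 55.0% in those of protein-coding genes. A match is only a match of letters and is no evidence of binding.

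Of the 42 genes, 9 (21.4%) start within 1000 bases of a protein-coding gene that runs the other way, against 6.9% of protein-coding genes. Besides Sdhd with Timm8b, these are Sdha with Ccdc127 (80 bases apart), Atp5pf with Gabpa (163 bases), Atp5f1c with Kin, Atp5mk with Pdcd11, Atp5pb with Wdr77, Cox4i1 with Emc8, Uqcr10 with Zmat5 and Uqcrh with Lrrc41. Gabpa encodes the DNA-binding subunit of NRF-2 itself, so that factor and a stalk subunit of complex V share a promoter region.

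The median size of the difference, sign left aside, was 0.086 log2 for the grandfather's diet and 0.034 for the female's own diet. Over all genes tested it was 0.064 and 0.048, so all genes together also differed more by the grandfather's diet. For the grandfather's diet, averaged over own diets, limma called 0 of 49 after adjustment, and 0 to 2 under the alternatives tried. Of all genes tested, 25 were called (0.199%), and 256 or 302 under the alternatives that called 2 members. Without adjustment, 12 of 49 had p under 0.05 (24.5%), against 14.7% of all genes. Of these, 5 were higher and 7 lower in the high-fat lineage, against 7.77% and 6.92% of all genes. The 7 include both Cox6c and its pseudogene Cox6c-ps1. The differences of the 49 genes ran between -0.27 and 0.19, with a median of -0.037 against -0.003 for all genes. For 44 of 49 (89.8%) the 95% interval lay within 0.32 log2 of 0, which is 1.25-fold, against 87.1% of all genes; this bound was chosen after the values were seen.

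Within complex II the subunits went in different directions. Sdhd, a membrane anchor of the complex, had 11.25, 11.40, 11.18 and 11.12 in high-fat/high-fat and 11.13, 11.28, 11.20 and 11.06 in high-fat/chow animals. The same gene had 11.04, 10.95, 11.05, 11.20 and 10.97 in chow/high-fat and 11.11, 11.01, 11.03, 11.03 and 11.03 in chow/chow animals. High-fat lineage animals were mostly above chow lineage animals, and the groups overlapped at both own diets. The average difference was 0.16 (SE 0.048, unadjusted p = 0.0032, adjusted p = 0.128 by limma).

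Sdhb, the iron-sulfur subunit, had 11.25, 11.23, 11.16 and 10.99 in high-fat/high-fat animals and 11.25, 11.15, 11.18 and 11.23 in high-fat/chow animals. It had 11.37, 11.21, 11.40, 11.37 and 11.21 in chow/high-fat animals and 11.35, 11.30, 11.39, 11.34 and 11.29 in chow/chow animals. On chow, every high-fat lineage animal lay below every chow lineage animal, while on high-fat food the lineages overlapped. Its average difference was -0.14 (SE 0.046, adjusted p = 0.150 by limma). For the other anchor, Sdhc, it was 0.10 (SE 0.055), and for the flavoprotein Sdha it was -0.05 (SE 0.051), so both differences were within about 2 SE of 0.

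In complex III, 7 of 9 genes had a positive grandpaternal difference, with a median of 0.046, but the median was -0.0047 when arrays were only centred on their medians. None of the 9 had an unadjusted p under 0.05. The smallest p-values were those of the core subunit Uqcrc1, at 0.08 (SE 0.044), and of Uqcrb, a small subunit, at -0.08 (SE 0.046), each with adjusted p = 0.413 by limma. Cyc1, the cytochrome c1 subunit that hands electrons to cytochrome c, had -0.07 (SE 0.050).

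Cycs, the somatic cytochrome c that carries electrons between complexes III and IV, had 12.21, 12.21, 12.37 and 12.31 in high-fat/high-fat and 12.31, 12.32, 12.17 and 12.23 in high-fat/chow animals. It had 12.34, 12.35, 12.43, 12.45 and 12.37 in chow/high-fat and 12.39, 12.41, 12.46, 12.27 and 12.32 in chow/chow animals. The high-fat lineage tended to lie lower, with overlap at both own diets, and the average difference was -0.11 (SE 0.042, adjusted p = 0.222 by limma). Its 3 probe sets gave between -0.13 and -0.10, and with arrays centred on their medians the difference was -0.22. Cytochrome c has many processed copies in rodent genomes, so the signal of these probe sets may include near-identical copies. Positions of probe sets were not in the sources used here, so this was not checked for Cycs or for any other member.

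In complex IV, 5 of 16 genes (31.2%) had an unadjusted p under 0.05 for the grandfather's diet, against 14.7% of all genes. Of these 5, 2 were higher and 3 lower, against 7.77% and 6.92% of all genes. The lower ones include Cox6c and its pseudogene Cox6c-ps1, which are not independent measurements. Cox7a2, the widely expressed form of a small subunit that has a separate muscle form, had 12.26, 12.39, 12.19 and 12.08 in high-fat/high-fat and 12.25, 12.33, 12.45 and 12.05 in high-fat/chow animals. It had 11.99, 12.01, 12.12, 12.09 and 12.13 in chow/high-fat and 12.06, 12.08, 11.97, 12.14 and 12.06 in chow/chow animals. In each high-fat lineage group 3 of 4 animals were above the whole chow lineage group on the same diet, and the fourth lay within its range. The difference was 0.19 (SE 0.054, adjusted p = 0.124 by limma), and the 3 probe sets of the gene gave 0.03 to 0.19, with -0.03 to 0.21 on chow alone. The muscle form, Cox7a1, is not analysed here.

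Cox6c, a small subunit of complex IV, had 12.70, 12.63, 12.65 and 12.54 in high-fat/high-fat and 12.81, 12.65, 12.62 and 12.68 in high-fat/chow animals. It had 12.78, 12.70, 12.78, 12.85 and 12.81 in chow/high-fat and 12.78, 12.82, 12.81, 12.74 and 12.79 in chow/chow animals. Among animals on high-fat food the 2 lineages met only at 12.70, and among those on chow 1 high-fat lineage animal lay inside the chow range. The difference was -0.13 (SE 0.040, adjusted p = 0.152 by limma).

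Its pseudogene Cox6c-ps1 went the same way, at -0.27 (SE 0.073, adjusted p = 0.105 by limma), the smallest p among the 49 genes. It had 8.29, 8.48, 8.34 and 8.38 in high-fat/high-fat and 8.90, 8.36, 8.33 and 8.37 in high-fat/chow animals, and 8.70, 8.67, 8.88, 8.65 and 8.78 in chow/high-fat and 8.62, 8.48, 8.88, 8.58 and 8.72 in chow/chow animals. On high-fat food the 2 lineages did not overlap, and on chow a single animal of the high-fat lineage lay above the entire chow group. Probes for a pseudogene can bind RNA of the parent gene, so the 2 genes are not independent measurements. Without that 1 high-fat/chow animal, Cox6c-ps1 passed the threshold, with -0.33 (adjusted p = 0.00761 by limma). In that fit limma called 302 of all 12591 genes, against 25 with all animals.

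In complex V, 14 of 19 genes were below 0 for the grandfather's diet, with a median of -0.060. The median was -0.10 on high-fat food, with 14 of 19 below 0, and -0.0019 on chow, with 10 of 19 below 0. The average over both foods ranged between -0.091 without high-fat/high-fat replicate 1 and -0.038 without replicate 4. Under the other alternatives it lay between -0.085 and -0.013. The last was in the table as deposited, where the median of all genes was 0.059. The genes with the smallest p, both above 0, were subunits of the rotating central stalk. Atp5f1e, subunit epsilon, had 12.20, 12.36, 12.17 and 12.25 in high-fat/high-fat and 11.96, 12.11, 12.29 and 12.18 in high-fat/chow animals, against 12.00, 11.94, 12.04, 11.94 and 12.05 in chow/high-fat and 12.10, 12.04, 12.05, 12.06 and 12.10 in chow/chow animals. On high-fat food all high-fat lineage animals were above all chow lineage animals, and on chow the lineages overlapped. The average difference was 0.16 (SE 0.046, adjusted p = 0.120 by limma).

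Atp5f1d, subunit delta of the same stalk, had 12.83, 12.90, 12.81 and 12.86 in high-fat/high-fat and 12.60, 12.84, 12.87 and 12.67 in high-fat/chow animals, against 12.70, 12.54, 12.65, 12.66 and 12.62 in chow/high-fat and 12.74, 12.67, 12.64, 12.69 and 12.67 in chow/chow animals. The pattern was that of Atp5f1e: separate lineages on high-fat food and overlapping ones on chow. The average difference was 0.14 (SE 0.044, adjusted p = 0.146 by limma). Both depended on the scaling of the arrays: centred on array medians, the differences were 0.044 for Atp5f1e and -0.016 for Atp5f1d. The third stalk gene, Atp5f1c (subunit gamma), had -0.05 (SE 0.038).

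Among the lower genes of complex V, Atp5pf, coupling factor 6 of the outer stalk, had -0.18 (SE 0.068, adjusted p = 0.220 by limma) and Atp5mgl4 -0.21 (SE 0.076, adjusted p = 0.203). Atp5if1, the inhibitor that blocks ATP breakdown by the enzyme, had -0.15 (SE 0.087), with an unadjusted p of 0.105. The catalytic subunits Atp5f1b and Atp5f1a had -0.06 (SE 0.036) and -0.02 (SE 0.053).

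**Figure D1:**
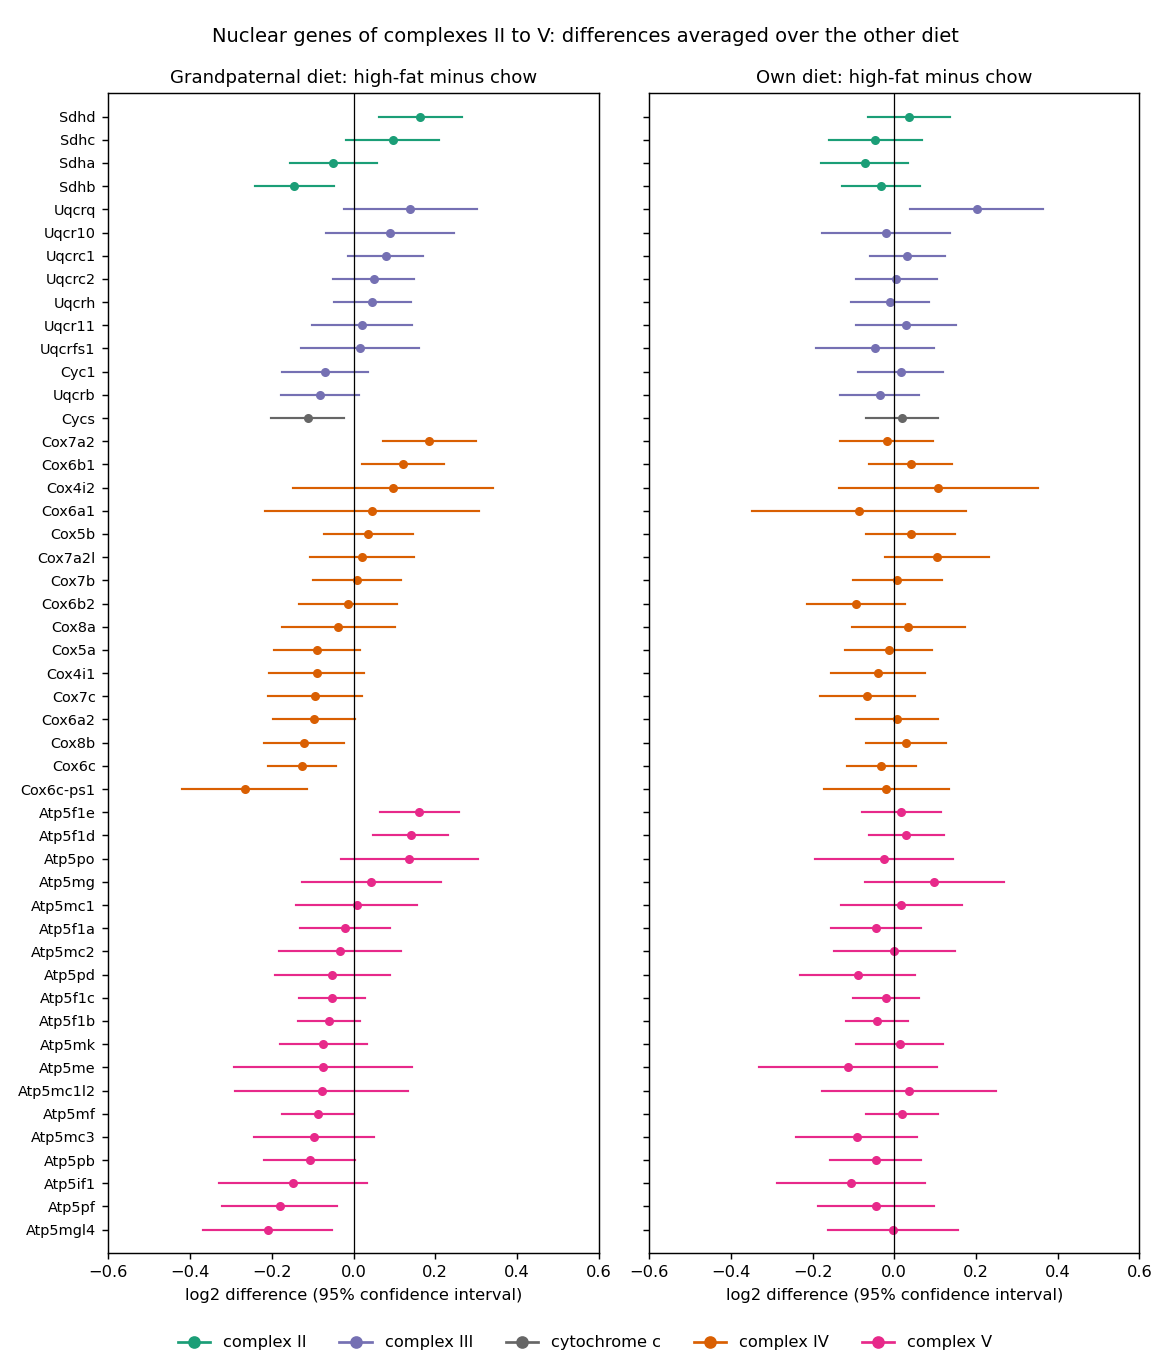
Log2 difference of each of the 49 genes with its 95% confidence interval, coloured by complex, for the grandfather's high-fat diet minus chow (left) and the female's own high-fat diet minus chow (right), each averaged over the other diet. Grandpaternal differences run between -0.27 (Cox6c-ps1) and 0.19 (Cox7a2); those of the own diet run between -0.11 (Atp5me) and 0.20 (Uqcrq).

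**Figure D2:**
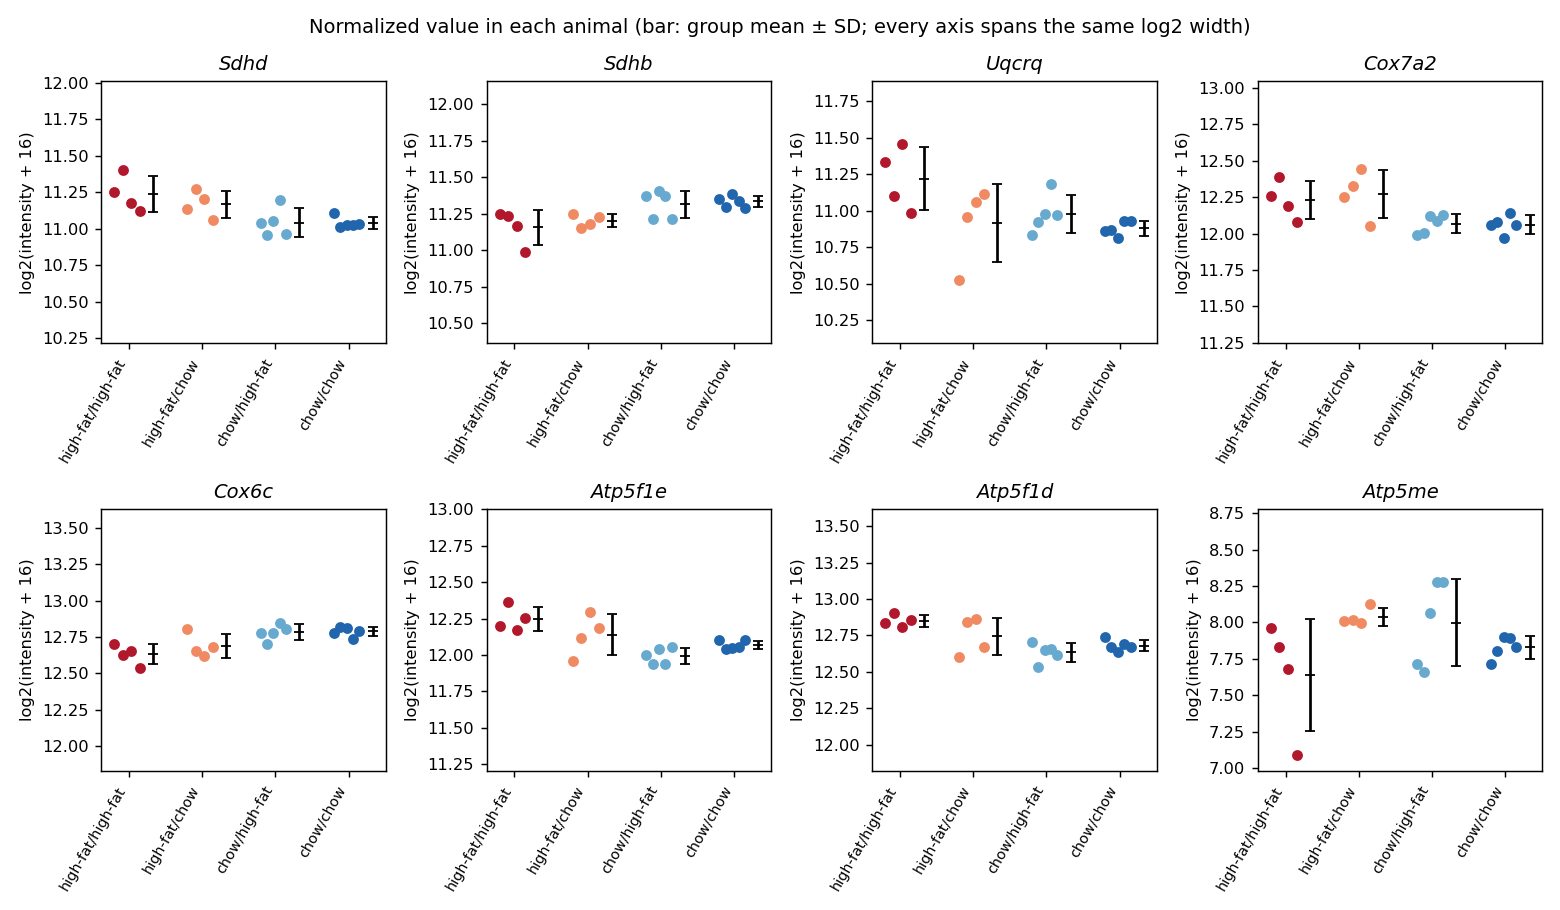
Normalized log2(intensity + 16) of 8 genes in each of the 18 animals, by grandfather's/own diet, with group mean and SD. Sdhd, Cox7a2, Atp5f1e and Atp5f1d sit mostly higher and Sdhb and Cox6c mostly lower in the 2 groups of the high-fat lineage; Uqcrq and Atp5me have widely scattered animals.

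Split by the females' own diet, the grandfather's diet gave 0 called members on either food by limma. Among females on high-fat food, where limma called none of the 12591 genes, 15 of the 49 genes (30.6%) had an unadjusted p under 0.05, against 13.3% of all genes. Of the 15, 7 were higher and 8 lower, against 6.69% and 6.65% of all genes. The 8 include both Cox6c and Cox6c-ps1. Among females on chow this held for 1 gene, Cox7a2, against 8.78% of all genes; limma called 1 of all genes there (0.00794%). On high-fat food the differences were 0.25 for Atp5f1e (SE 0.065, adjusted p = 0.131), 0.22 for Atp5f1d (SE 0.062, adjusted p = 0.146), -0.37 for Cox6c-ps1 (SE 0.104, adjusted p = 0.146) and -0.15 for Cox6c (SE 0.057, adjusted p = 0.245). These sizes depended on the scaling: with arrays centred on their medians they were 0.13 for Atp5f1e, 0.02 for Atp5f1d and -0.33 for Cox6c, which had -0.08 with the array median as a covariate, and Cox6c-ps1 had -0.12 in the table as deposited. Complex II gave 0.20 for Sdhd (SE 0.069, adjusted p = 0.212) and -0.16 for Sdhb (SE 0.065, adjusted p = 0.291), the last being 0.0075 in the table as deposited, where the median of all genes was 0.182. In complex III, Uqcrc1 had 0.15 (SE 0.062) and Uqcrq 0.24 (SE 0.110).

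Some groups of the 2 lineages did not overlap at all. On high-fat food this was so for 3 members, Atp5f1e and Atp5f1d above and Cox6c-ps1 below, against 4.72% of all genes. On chow it was so for 2, Atp5me above and Sdhb below, against 3.29% of all genes. Over all animals of a lineage it was so for 0 of 49, against 0.0556% of all genes. On chow the genes of smallest p were Cox7a2 at 0.21 (SE 0.077, adjusted p = 0.476) and Cox8b at -0.12 (SE 0.066) in complex IV, Sdhb at -0.13 (SE 0.065) and Sdhd at 0.13 (SE 0.069) in complex II, Atp5mf at -0.12 (SE 0.060) and Atp5po at 0.18 (SE 0.114) in complex V, and Uqcrh at 0.07 and Uqcr10 at 0.11 in complex III. Atp5po encodes the stalk subunit OSCP and Atp5mf a small membrane subunit. The share of genes with small p-values was not tested between the 2 foods.

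For the females' own high-fat diet, averaged over lineages, limma called 0 of the 49 genes and 2 of all genes (0.0159%), and 1 of 49 had an unadjusted p under 0.05 (2.04%), against 6.74% of all genes. The differences ran between -0.11 and 0.20 with a median of -0.010, and 45 of 49 intervals (91.8%) lay within 0.32 log2 of 0, against 90.5% of all genes. By complex, the median was -0.039 in complex II, 0.005 in complex III, -0.004 in complex IV and -0.020 in complex V. The medians of complexes III and IV changed sign under several alternatives and that of complex V without 1 high-fat/high-fat animal, so no direction is read from them.

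The 1 gene was Uqcrq, a small membrane subunit of complex III. It had 11.33, 11.10, 11.46 and 10.98 in high-fat/high-fat animals against 10.53, 10.96, 11.06 and 11.12 in high-fat/chow animals, and 10.83, 10.92, 10.98, 11.18 and 10.97 in chow/high-fat animals against 10.86, 10.86, 10.81, 10.93 and 10.93 in chow/chow animals. The groups overlapped within both lineages, and 1 high-fat/chow animal was lower than all others. The average difference was 0.20 (SE 0.078, adjusted p = 0.681 by limma). In the other complexes the smallest p-values belonged to Sdha, at -0.07 (SE 0.051), Sdhc, at -0.05, Cox7a2l, at 0.10 (SE 0.061), Cox6b2, at -0.09 (SE 0.057), Atp5pd, at -0.09 (SE 0.067), and Atp5mc3, at -0.09 (SE 0.070).

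Within the chow lineage, limma called 0 of 49 genes and none of all genes for the own diet, and 0 of 49 had an unadjusted p under 0.05, against 4.81% of all genes. The groups of 0 members were fully apart, against 0.755% of all genes. The genes of smallest p had -0.09 (Sdha) and -0.04 (Sdhc) in complex II, 0.10 (Uqcrq) and -0.05 (Uqcrc2) in complex III, -0.09 (Cox6b2) and 0.08 (Cox6c-ps1) in complex IV, and 0.10 (Atp5mk) and 0.14 (Atp5mg) in complex V. In the table as deposited, where the median of all genes was -0.131, the 4 positive ones were below 0. Within the high-fat lineage limma again called 0 members and no gene at all, and 3 of 49 had an unadjusted p under 0.05 (6.12%), against 9.28% of all genes: Uqcrq at 0.30 (SE 0.116, adjusted p = 0.454), Cox7a2l and Atp5me. The last 2 were also the members whose groups stood apart, against 4.14% of all genes.

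Cox7a2l had 10.84, 10.79, 11.04 and 10.91 in high-fat/high-fat animals against 10.45, 10.71, 10.69 and 10.68 in high-fat/chow animals, a difference of 0.26 (SE 0.091, adjusted p = 0.422 by limma). In the chow lineage it had 10.88, 10.61, 10.68, 10.73 and 10.70 in chow/high-fat animals against 10.98, 10.71, 10.90, 10.56 and 10.71 in chow/chow animals, where the groups overlapped almost fully. The interaction, which asks whether the own diet acted differently in the 2 lineages, was 0.31 (SE 0.122, adjusted p = 0.648 by limma).

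Atp5me, subunit e, which helps hold ATP synthase dimers together, had 7.96, 7.83, 7.68 and 7.09 in high-fat/high-fat animals against 8.01, 8.02, 7.99 and 8.13 in high-fat/chow animals. In the chow lineage it had 7.72, 7.66, 8.07, 8.28 and 8.28 in chow/high-fat animals against 7.71, 7.80, 7.90, 7.89 and 7.83 in chow/chow animals. The high-fat lineage was lower on high-fat food with no overlap, by -0.40 (SE 0.155, adjusted p = 0.459 by limma), and the chow lineage overlapped. Without the animal at 7.09 that difference was -0.21. The interaction of Atp5me was -0.57 (SE 0.208, adjusted p = 0.648), and -0.27 in the table as deposited. For the interaction limma called 0 of 49 members and none of all genes, and these 2 genes were the only members with an unadjusted p under 0.05 (4.08%), against 6.84% of all genes.

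Complex IV and complex V have subunits made in several forms, and the forms were set side by side for the grandfather's diet, each against itself. Of the forms made mainly in muscle and heart, Cox6a2 had -0.10 (SE 0.048) and Cox8b -0.12 (SE 0.047), with adjusted p-values of 0.361 and 0.236 by limma. Their widely expressed counterparts Cox6a1 and Cox8a had 0.04 (SE 0.125) and -0.04 (SE 0.066). Cox8b had 11.68, 11.59, 11.83 and 11.74 in high-fat/high-fat and 11.75, 11.66, 11.55 and 11.77 in high-fat/chow animals, and 11.79, 11.83, 11.84, 11.90 and 11.80 in chow/high-fat and 11.86, 11.72, 11.91, 11.70 and 11.81 in chow/chow animals. Both lineages overlapped on either food. The main form of subunit 4, Cox4i1, had -0.09 (SE 0.055), and the form known from lung, Cox4i2, which was dim here, had 0.10 (SE 0.116).

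Cox5a had -0.09 (SE 0.051) and its partner in number, Cox5b, 0.04 (SE 0.052). Cox6b1 had 0.12 (SE 0.048, adjusted p = 0.247), and the testis form Cox6b2, dim here, had -0.01 (SE 0.057). Cox8c, the testis form of subunit 8, stayed between 4.65 and 5.14 in all animals, below the level tested. The 3 genes that encode the same c subunit of the proton-driven ring, Atp5mc1, Atp5mc2 and Atp5mc3, had 0.01 (SE 0.071), -0.03 (SE 0.071) and -0.10 (SE 0.070). None of these differences between lineages passed the threshold.

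In complexes II, IV and V the animals of the high-fat/high-fat group were more unlike each other than those of the other groups. A score per animal, the mean of a complex's log2 values after centring each gene on its own mean, is given as a description. For complex V the score was 0.139, 0.050, -0.198 and -0.206 in the 4 high-fat/high-fat animals. It lay between -0.027 and 0.062 in high-fat/chow, between -0.027 and 0.086 in chow/high-fat and between 0.0017 and 0.013 in chow/chow animals. Thus 2 high-fat/high-fat animals were lower than every animal of the other groups and 1 was higher.

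Complexes IV and II also had the first 2 of these animals above 0 and the other 2 below: complex IV scored 0.090, 0.050, -0.109 and -0.091 and complex II 0.048, 0.137, -0.072 and -0.118. Complex III and cytochrome c did not. Complex III scored 0.118, 0.058, 0.020 and -0.060, with an SD of 0.075 against 0.077 in high-fat/chow animals, and 2 of its 9 genes (22.2%) had their largest SD in the high-fat/high-fat group. Cycs scored -0.115, -0.115, 0.040 and -0.023. Complex I, whose nuclear subunits are not among the 51 genes, scored 0.107, 0.074, -0.119 and -0.110 in these animals and -0.0096 to 0.020 in chow/chow animals. Of the 49 genes, 39, 28, 13 and 10 were above their own mean in the 4 animals, and of the 19 genes of complex V 18, 9, 2 and 3. Examples within complex V are Atp5mc1, at 12.18, 11.97, 11.62 and 11.59, and Atp5mc3, at 11.89, 11.68, 11.33 and 11.27.

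The within-group SD of a member was largest in the high-fat/high-fat group for 25 of 49 genes (51%), against 26% of all genes, and it was higher there than in the chow/chow group for 40 of 49 (81.6%), against 56.7% of all genes. The median SD of the members was 0.131 in high-fat/high-fat, 0.113 in high-fat/chow, 0.091 in chow/high-fat and 0.062 in chow/chow animals. The count of 25 was 30 with arrays centred on their medians and 23 in the table as deposited, against 26.8% and 17% of all genes. Relative to all genes, the members of the 4 animals stood at 0.104, 0.053, -0.114 and -0.133 after quantile normalization and at 0.147, -0.0020, -0.158 and -0.223 with either of these scalings. These spreads were looked at after the values were seen, with no test of a difference between groups.

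The titles carry a well code, of a plate whose use the labels do not state; the first 2 of these animals were in column 9 and the other 2 in columns 5 and 7. The other 2 arrays of column 9, a chow/chow and a high-fat/chow animal, had scores over all members of 0.0024 and 0.038. Slow-fibre marker scores of the 4 animals were 0.356, 0.504, 0.229 and -1.06, so the lowest animal on most complexes was also lowest in slow-fibre markers, but the third was not. The part of fibre type or well column in the split was not tested.

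**Figure D3:**
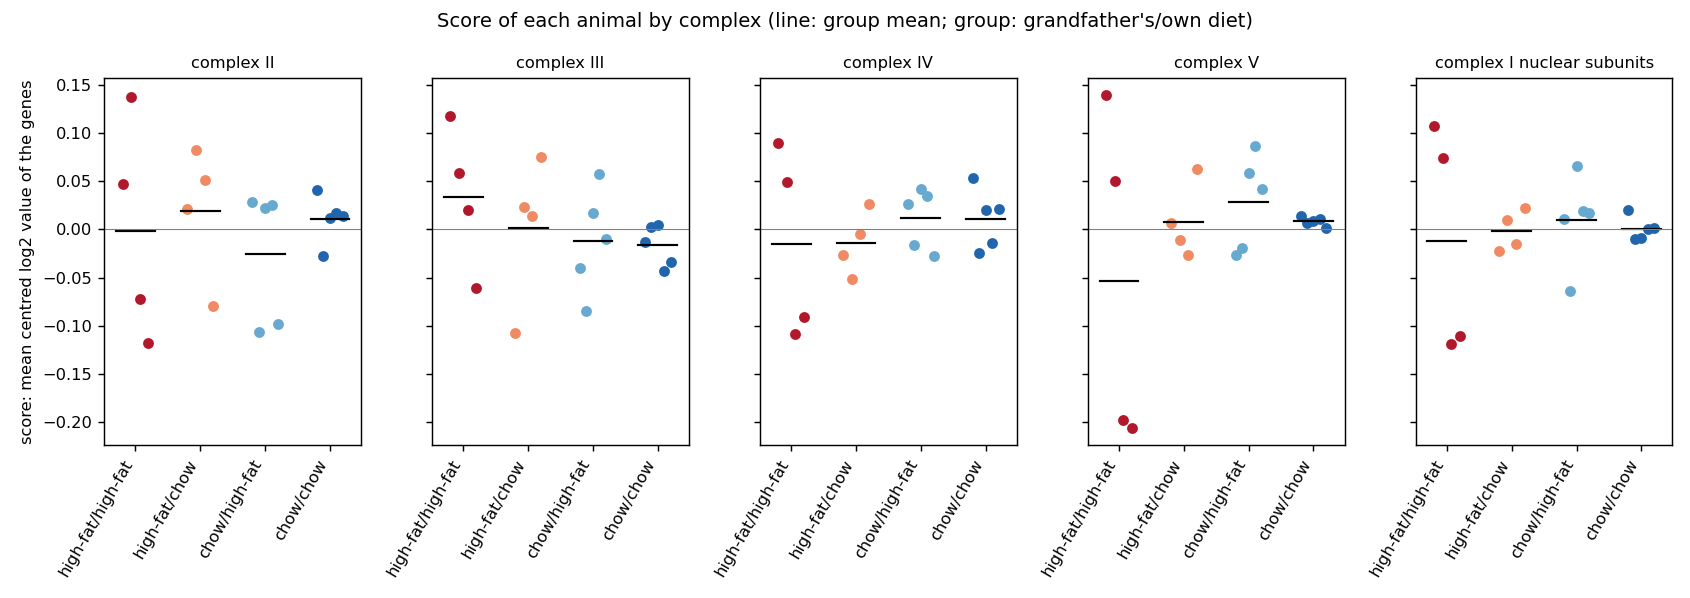
Score of each animal, the mean centred log2 value of the genes of complexes II, III, IV and V and, for comparison, of complex I, by grandfather's/own diet; lines are group means. In the high-fat/high-fat group complex V spans -0.206 to 0.139, whereas the chow/chow animals lie between 0.0017 and 0.013.

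Pooled over the 4 groups, the median within-group SD was 0.108 over the 49 genes and 0.136 over all genes. Of the members 32 (65.3%) had a mean log2 value of 11 or more, against 3.09% of all genes, and at that brightness the SD was alike, 0.095 for members and 0.096 for all genes. By this pooled SD the steadiest member was Atp5f1b, the catalytic beta subunit, at 0.042, and the least steady were Cox6a1 at 0.298, Cox4i2 at 0.276 and Atp5me at 0.244. The high-fat/high-fat group weighs heavily in Cox6a1, whose SD was 0.573 there and 0.210, 0.108 and 0.144 in high-fat/chow, chow/high-fat and chow/chow animals.

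By column of the well code, the grandpaternal difference of Sdhd was 0.125 in column 5, 0.120 in column 7 and 0.031 in column 9. Sdhb had -0.185, -0.216 and -0.065, Cox7a2 0.222, 0.141 and -0.0073, and Atp5f1e 0.172, 0.076 and 0.085, in the same columns. Each kept its direction in columns 5 and 7, and Cox7a2 did not in column 9. Column 9 held both lineages on chow only, so its grandpaternal values set 1 high-fat/chow animal against 1 chow/chow animal. The own-diet difference of Uqcrq was 0.286, 0.303 and 0.100, the last from the high-fat lineage alone. Slow-fibre markers had a median grandpaternal difference of -0.35 over both foods, -0.69 on chow and -0.025 on high-fat food. In each, limma called 0 of 14, against 0.199%, 0.00794% and 0% of all genes. Without adjustment, 4 (28.6%), 6 (42.9%) and 0 of the 14 had p under 0.05, all of them lower. The shares of all genes were 14.7%, 8.78% and 13.3%. The part of these markers in the members' differences was not tested.

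Probe sets of 1 gene gave differences within 0.3 log2 of each other in 7 of the 8 genes that had several. The exception was Cox7b, a small subunit of complex IV. Its bright probe set 10934579, at a mean of 11.60, had a grandpaternal difference of 0.01 (SE 0.052). The dim probe set 10938946, at a mean of 5.40 and the 29.8th percentile of all probe sets, had 5.73, 5.61, 5.76 and 5.69 in high-fat/high-fat and 5.21, 5.47, 5.72 and 5.76 in high-fat/chow animals, against 4.97, 5.14, 5.27, 5.04 and 5.05 in chow/high-fat and 5.55, 5.38, 5.29, 5.26 and 5.36 in chow/chow animals. On high-fat food the 2 lineages stood fully apart on this probe set.

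In a limma fit over all 20917 probe sets, of which 0.516% were called for the average grandpaternal difference and 0.0813% for that on high-fat food, the dim probe set rose by 0.39 (SE 0.068, adjusted p = 0.0162) and by 0.60 (SE 0.097, adjusted p = 0.0141). The 2 probe sets differed by up to 0.59 log2 in their differences, and the place of each on the transcript is not given in the sources used here, so a change of Cox7b as a gene is not established.

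**Figure D4:**
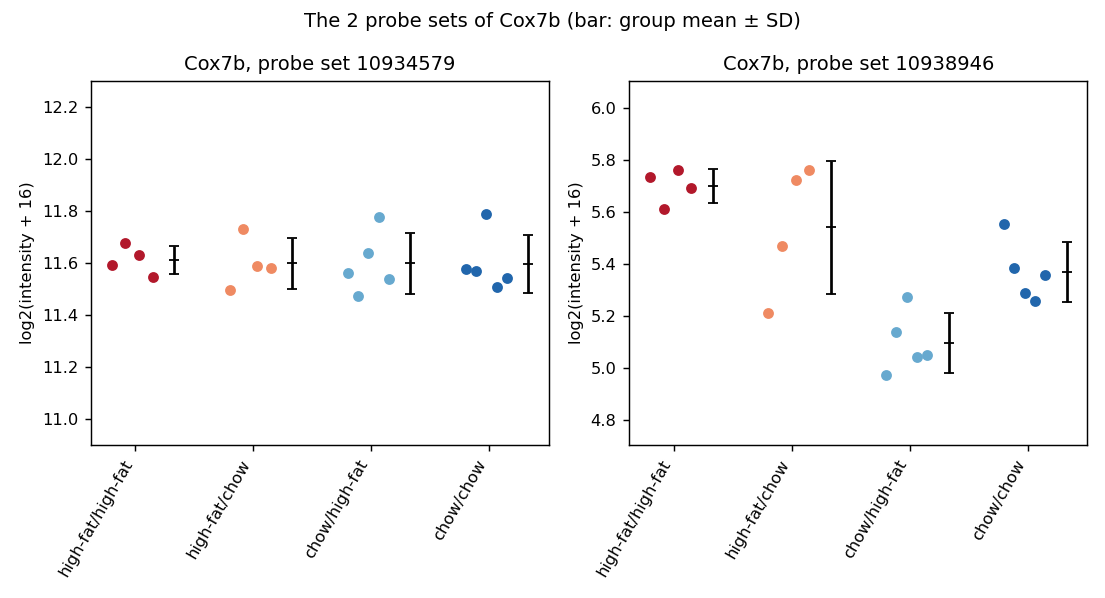
Normalized log2(intensity + 16) of the bright (left) and dim (right) probe set of Cox7b in each animal, by grandfather's/own diet, with group mean and SD. The bright one, at a mean of 11.60, is alike in the 4 groups, and the dim one, at 5.40, is higher in high-fat/high-fat than in chow/high-fat animals with no overlap.

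Genes that work with these complexes were counted for the grandfather's diet, where 14.7% of all genes had an unadjusted p under 0.05. Limma called 0.199% of all genes there. These lists were chosen with earlier results of these data known. Of 23 assembly factors of complexes II to V, 7 had an unadjusted p under 0.05 (30.4%) and 1 was called by limma: Sdhaf1, which helps put the iron-sulfur clusters into Sdhb, rose by 0.43 (SE 0.085, adjusted p = 0.0489), close to the threshold and not run under the alternatives. Of 36 nuclear complex I subunits 5 had an unadjusted p under 0.05 (13.9%), of 10 citric acid cycle genes 2 (20%), and of 12 regulators of respiratory genes 2 (16.7%), and none of these passed adjustment. Sdhaf1 and Sdhb therefore differed in opposite directions between lineages, of which only the difference of Sdhaf1 passed the threshold.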

How the data were processed

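The authors deposited 1 linear intensity per probe set and array, for 20917 probe sets and 18 arrays. The submitters' processing notes name Affymetrix Expression Console and PLIER; their versions were not given in the sources used here. Intensities became log2(intensity + 16) and were quantile normalized (limma 3.58.1, R 4.3.3). Of the probe sets, 18197 carried 1 symbol; 1 per gene was kept, that of the highest mean, if this was above the 25th percentile (5.29), which left 12591 genes. The 4 probe sets shared by a member and another gene were left out: those of Uqcrc2, Atp5pf, Atp5pd and Atp5mc2, each of which also has its own. A model of 4 group means gave 7 comparisons, moderated by eBayes, and was tested on simulated data. Arrays of 1 group were compared in 32 pairs, and none were duplicates: the smallest SD of their log2 difference was 0.196. All 51 Entrez identifiers matched the RefSeq table and 0 symbols changed.

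The members and lists were chosen with earlier results of these data known. Named genes are the 2 of smallest p per complex in each comparison, all complex II genes, Cycs and the isoform pairs. Also named are Cox5a and Cox5b, and genes left out or with probe sets more than 0.3 log2 apart. Alternatives were other scalings, offsets, filters, blocks and weights, and leaving out each array. Promoters were searched with Python 3.11.15, and figures were drawn with matplotlib 3.10.9.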

Additional observations from a re-analysis of the deposited data

Results flagged for a closer look

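The highest and the lowest value of a named gene, or of a score, in each group were set against the rest of the group. Of 128 such sets of values, 5 held a value far from the others, all of them of single genes. Chance gives about 1 in 20, so the 5 are no more than chance would give. In the high-fat/chow group, 1 animal had the highest Cox6c-ps1, at 8.90, where the others lay between 8.33 and 8.37, and the same animal had the lowest Cox7a2l, at 10.45, where the others lay between 10.68 and 10.71. Another high-fat/chow animal had the highest Atp5me, at 8.13, against 7.99 to 8.02 in the rest. In the chow/high-fat group Cox6b2 reached 5.49 in 1 animal, against 5.23 to 5.28 in the others. In the chow/chow group Sdhd reached 11.11 in 1 animal, against 11.01 to 11.03 in the others.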

How the results depend on the processing

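In 5 of the 7 comparisons limma called 0 of 49 genes under all alternatives run. For the average grandpaternal difference it called 1 with all probe sets (the dim one of Cox7b), where 66 of 13647 probe sets were called. With array weights it called 2, Atp5f1e and Cox6c-ps1, where 256 of all 12591 genes were called. Leaving out 1 array gave 0 to 2, with 302 of all genes called where it gave 2. For the grandpaternal difference on high-fat food it called 2 in the table as deposited (Cox7a2l and Sdhd), where 1691 of all genes were called. It called 1 with all probe sets (Cox7b), where 9 of 13647 were called. Leaving out 1 array gave 0 to 1 (Cox6c-ps1), with 54 of all genes called where it gave 1. The 1 array that mattered in both was high-fat/chow replicate 1. Median differences of the members, with those of all genes beside them, moved in the table as deposited to -0.123 (all genes -0.131) and 0.064 (0.111) for the female's diet within the chow lineage and within the high-fat one, to -0.109 (-0.056) and 0.052 (0.182) for the grandfather's diet on chow and on high-fat food, and to 0.185 (0.241) for the interaction. With arrays centred on their medians the grandpaternal medians were -0.072 on chow and -0.118 on high-fat food. The cause was not tested. The count of called members stayed at 0 in 215 of 221 alternative values. A median or a single gene was counted as unchanged where it moved by less than the within-group SD between animals, whatever its sign. A single gene also had to stay uncalled by limma. This was so in 214 of 221 values for members' medians, 854 of 884 for medians of a complex and 1941 of 1987 for single genes. For the score of all members that SD was 0.061, larger than the members' medians themselves. These counts therefore do not show that a direction held. No paired analysis by replicate number was possible because the labels give the groups no shared replicate numbers; pairing by neighbouring animal numbers in the titles instead, as 10 random blocks with a consensus correlation of 0.126, left 0 members called in each of the 7 comparisons. The number of arrays, and a scaling that cannot tell a shift of most genes from a shift of the array, limit these results.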
